A study of Mus musculus with 23 samples.

Results

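The genes described here are the mouse members of the Slc1, Slc3, Slc6, Slc7, Slc36, Slc38 and Slc43 families of solute carriers, most of which move amino acids across membranes. The rule took every gene with 1 annotated symbol in these families, by symbol alone, and used no measured value. The families themselves were chosen with earlier results of these data known. The array named 58 such genes among 18193, and 51 of the 58 passed a filter on low values that kept 15378 genes. Each gene is represented by 1 probe set, a group of short probes for a transcript, taken as the one with the highest mean over all arrays.

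The arrays measured messenger RNA of 3 purified epithelial cell types of the mammary gland of female C57BL/6 mice, labelled as mature luminal cells, luminal progenitors and stem cells. The stages were virgin at 3 weeks, virgin at 9 weeks, pregnant at day 10, day 16 and day 19, and retired breeders, whose age is not given. Only mature luminal cells were measured at day 19, which makes 16 groups on 23 arrays. Of these, 7 groups had 2 arrays (3-week stem cells and luminal progenitors, all 3 cell types at 9 weeks, and day-10 stem and mature luminal cells) and 9 groups had 1. No group carried a transgene or received an agent according to the labels, which also do not name the surface markers used for purification. Nothing in the labels says that arrays of a group came from separate animals, so p-values measure only the spread between these arrays, which may be technical.

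Amino acids enter the mammary epithelium through families of carriers with different substrates and coupling. Cationic carriers of the Slc7 family bring in arginine and lysine, while the heavy chains Slc3a1 and Slc3a2 pair with Slc7 light chains to form exchangers. Sodium-coupled carriers of the Slc1, Slc6 and Slc38 families can concentrate their substrates in the cell, among them glutamate, glutamine, taurine and creatine. During pregnancy and lactation the secretory epithelium takes up amino acids from blood to make milk protein. Cells short of amino acids activate the kinase GCN2 and the transcription factor ATF4, which raises several carrier genes and the genes of amino acid synthesis and tRNA charging.

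All levels and differences below are log2 values as deposited, on which a difference of 1 is a doubling. Of the 58 genes, 18 lay above the median of the array on all 23 arrays, 13 on 12 to 22 arrays, 14 on 1 to 11 arrays and 13 on none. The 13 never above it included the light chain Slc7a8, the glycine carrier Slc6a5 and the renal and intestinal carrier Slc6a19. Array medians lay between 4.51 and 5.47. The plot of group means shows how the 31 carriers above the median on 12 or more arrays varied.

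**Figure D1:**
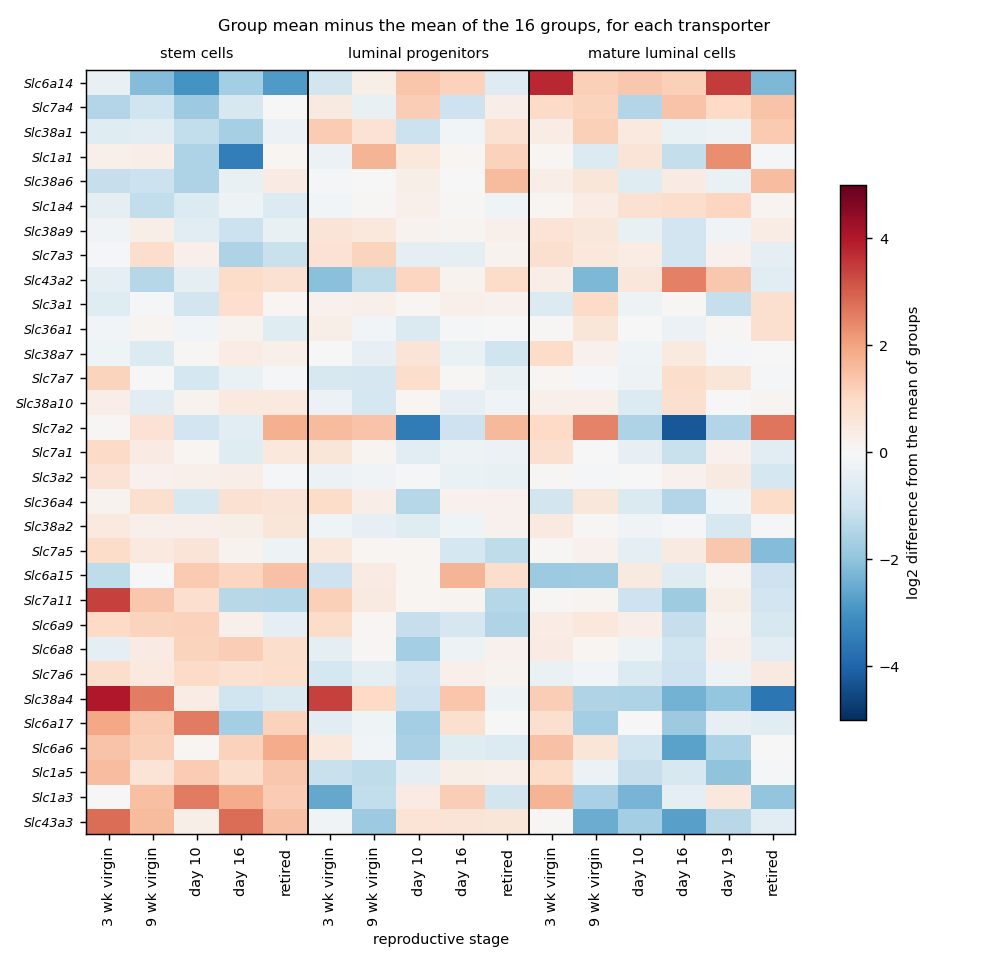
Group mean minus the mean of all 16 groups (log2, colour) for the 31 carriers above the array median on 12 or more of 23 arrays, with stages in columns within each cell type. Slc7a2 is low in the pregnant columns of luminal progenitors and mature luminal cells and high in retired breeders, and Slc6a14 is high and Slc43a3 low in most mature luminal columns.

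The labelled cell types were checked against marker genes. The mean of 15 basal and myoepithelial markers lay between 9.75 and 12.21 on stem cell arrays, between 7.10 and 10.53 on luminal progenitor arrays and between 7.05 and 9.20 on mature luminal arrays, so stem cells were highest but overlapped the luminal progenitors. The mean of 9 luminal keratin and junction genes was 10.33 to 12.26 on stem cell arrays and 11.60 to 12.85 on luminal arrays, which overlapped. Between mature luminal cells and luminal progenitors the median difference was -0.07 over 7 mature luminal markers and -0.27 over 8 luminal progenitor markers. These lists therefore separated the 2 luminal types little. Markers of other cell types were also present: 12 endothelial markers averaged 9.42 to 11.56 on the 4 virgin stem cell arrays and 5.05 to 8.49 elsewhere, and 10 stromal markers averaged 10.57 and 10.67 on the luminal progenitor arrays of days 10 and 16. The mean of 12 leukocyte markers was 9.83 on the 3-week mature luminal array. It was 9.29 and 8.76 on the luminal progenitor arrays of days 10 and 16, and 3.62 to 8.20 elsewhere. The 3-week mature luminal and retired breeder stem arrays had the largest excess of the 3′ over the 5′ Gapdh control (5.16 and 3.77, against 0.87 to 2.72 on the others), a sign of shorter RNA. In such bulk samples fewer cells of a type and less RNA per cell cannot be told apart.

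Differences were tested with limma, with Benjamini-Hochberg adjustment over all 15378 genes and a call at an adjusted p under 0.05. In pregnancy (days 10 and 16) against 9-week virgins, averaged over the 3 cell types, 2 of the 51 carriers rose and 3 fell, where 7.13% of all genes were called (3.77% up, 3.36% down). The carriers that fell were Slc7a2, Slc6a6 and Slc38a1, and those that rose were Slc43a2 and Slc38a3. The median difference over the 51 carriers was -0.06, against 0.10 over all genes. In luminal progenitors against stem cells 2 carriers were higher and 6 lower, beside 4.38% of all genes called (0.78% higher, 3.6% lower). In mature luminal cells against stem cells 2 were higher and 7 lower, where 8.34% of all genes were called (1.56% higher, 6.78% lower).

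Slc7a2, a cationic carrier of arginine, lysine and ornithine, showed the largest change of any carrier with pregnancy. In mature luminal cells its level was 11.49 and 12 on the 9-week virgin arrays, 7.53 and 7.93 at day 10, 5.06 at day 16, 7.82 at day 19 and 11.94 in the retired breeder. In luminal progenitors it was 10.70 on both 9-week arrays, 5.79 at day 10, 8.24 at day 16 and 10.91 in the retired breeder. Stem cells gave 10.24 and 9.79 at 9 weeks, 8.07 and 8.54 at day 10, 8.73 at day 16 and 11.06 in the retired breeder. In every cell type all pregnant arrays lay below all 9-week and retired arrays, and the share of all genes that do so within each type was not counted. Taken over cell types, the 9 pregnant arrays (5.06 to 8.73) did not overlap the 6 arrays of 9-week virgins (9.79 to 12). Among the 51 carriers this held for Slc7a2 alone, and for 0.715% of all genes in that direction; 0 carriers lay wholly higher in pregnancy, as 0.267% of all genes did. The 5 arrays of 3-week virgins, from 8.48 to 11.20, overlapped the pregnant ones. The 3 retired arrays (10.91 to 11.94) lay above all pregnant ones, and 4.43% of all genes separated in that direction.

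The difference in Slc7a2 between pregnancy and 9-week virgins was -3.51 ± 0.30 (SE, limma adjusted p = 7.58e-05) over the 3 cell types. Within mature luminal cells, days 10, 16 and 19 together, it was -4.88 ± 0.49 (adjusted p = 0.000291). Both calls held under all 33 alternative settings, with values between -3.92 and -2.86 and between -5.35 and -3.97. In luminal progenitors the difference was -3.69 ± 0.55 (adjusted p = 0.0273), and the call was lost when any of 5 arrays was left out: either 9-week luminal progenitor array, either day-10 stem array, or the day-10 luminal progenitor array, without which the value was -2.46. It was also lost with the mean of all probe sets (-3.06, adjusted p = 0.0764) and when only the compared groups were fitted (adjusted p = 0.152). In stem cells the difference was -1.50 ± 0.52 (adjusted p = 0.300) and did not pass. The change over days 10 and 16 was larger in mature luminal than in stem cells by -3.85 ± 0.73, which did not pass (limma adjusted p = 0.169). It passed with a replicate term in the model (-3.85 ± 0.66, limma adjusted p = 0.0245). Here and below, that term sets arrays titled replicate 1 against all others, including 8 arrays with no number in their title.

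Retired breeders were compared with pregnancy as well, a comparison added after the data had been seen. Slc7a2 was the 1 carrier called, at 3.99 ± 0.38 higher in retired breeders (limma adjusted p = 0.00034), where 1.53% of all genes were called and 1.31% called higher. This comparison shares its pregnant arrays with the one above. All 4 probe sets of Slc7a2 were lower in pregnancy, by -3.51, -2.89, -4.01 and -1.60, the last on a probe set above the array median on only 4 arrays. In retired breeders against pregnancy they gave 3.99, 2.82, 4.48 and 1.35.

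**Figure D2:**
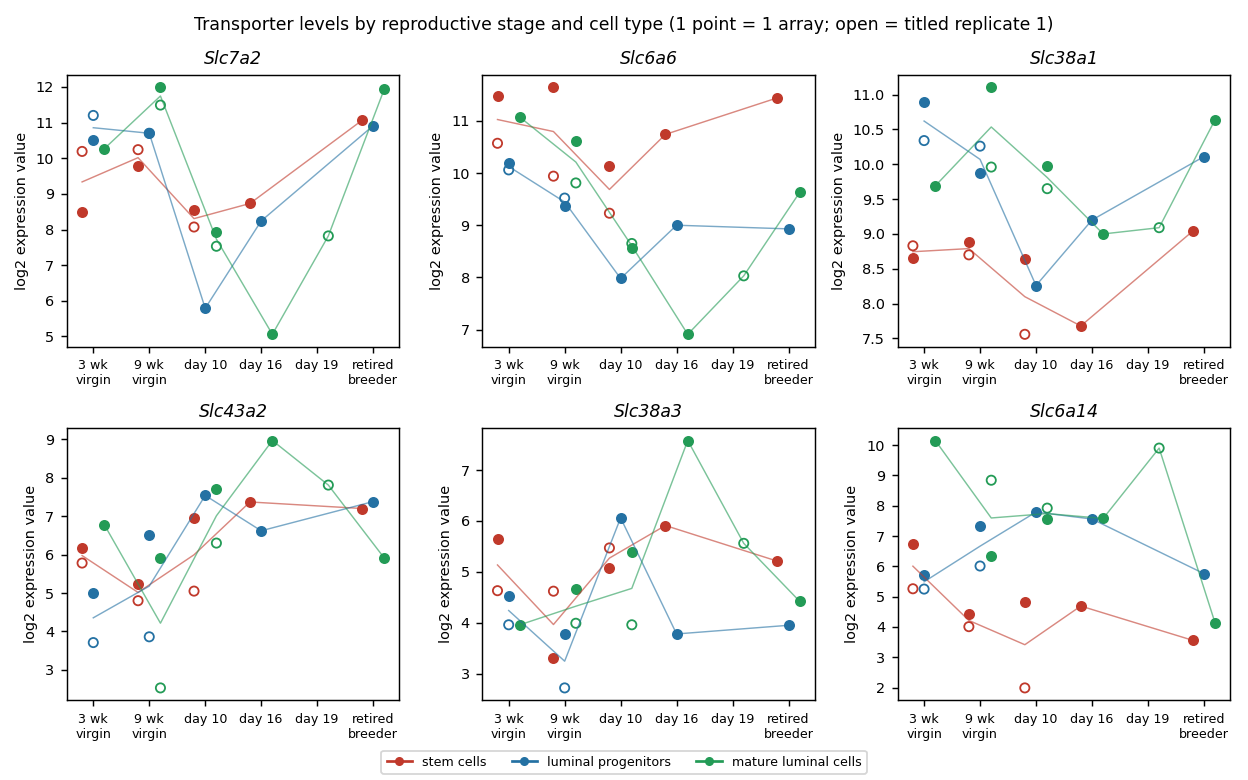
Level (log2 expression value, vertical axis) of 6 carriers at each reproductive stage in stem cells (red), luminal progenitors (blue) and mature luminal cells (green). Each point is 1 array, open where its title has replicate number 1, and lines join group means; for Slc7a2 the pregnant arrays lie between 5.06 and 8.73 and the 9-week and retired arrays between 9.79 and 12.

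Genes listed as mature luminal markers changed in the same directions as Slc7a2 in pregnancy and in retired breeders. This list separated mature luminal cells from luminal progenitors little (median difference -0.07, above). Of 7 such genes kept, 5 fell in pregnancy over the 3 cell types (median difference -2.62) and 5 were higher in retired breeders than in pregnancy (median 2.78). On the mature luminal arrays their mean was 9.48 and 10.54 at 9 weeks, 9.07 and 7.24 at day 10, 5.91 at day 16, 5.23 at day 19 and 11.13 in the retired breeder, and none of the 7 was listed at 0 throughout. From day 16 to day 19 the marker mean fell, whereas Slc7a2 in these cells rose from 5.06 to 7.82. The part of the marker genes in the change of Slc7a2 was not tested.

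The other cationic carriers passed in no comparison of stages or cell types in the model without a replicate term, and Slc7a1 and Slc7a3 differed by replicate number (below). Slc7a1, the widely expressed arginine and lysine carrier, lay between 10.63 and 11.98 on pregnant arrays and between 10.93 and 12.61 on 9-week arrays, which overlapped, with a pregnancy difference of -0.66 ± 0.29 (limma adjusted p = 0.177). Slc7a3, a further arginine and lysine carrier, gave -1.31 ± 0.89 in pregnancy. Slc7a4, a relative without established transport, was 1.69 ± 0.50 above stem cells in mature luminal cells (adjusted p = 0.0593), with the replicate term at 1.67 ± 0.47 (adjusted p = 0.0256). Slc7a14, a lysosomal relative, did not pass the filter.

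Slc6a6, the taurine carrier, was the other gene that fell within mature luminal cells. Its mature luminal levels were 9.81 and 10.61 at 9 weeks, 8.65 and 8.56 at day 10, 6.91 at day 16, 8.03 at day 19, 11.07 at 3 weeks and 9.63 in the retired breeder. The 4 pregnant arrays were the lowest of this cell type and did not overlap the other arrays, and the share of all genes that do so was not counted. The difference from 9-week virgins was -2.36 ± 0.51 in mature luminal cells (limma adjusted p = 0.0295), where these 2 calls among 51 carriers compare with 3.02% of all genes called and 2.16% called lower, and -1.33 ± 0.32 over the 3 cell types (adjusted p = 0.0293). These calls were lost under 9 and 8 of the 33 alternatives, with values from -2.76 to -1.22 and from -1.62 to -0.93. The mature luminal call was lost without any of the 5 mature luminal arrays at 9 weeks, day 10 or day 16 (-2.76 to -1.89). The call over cell types was lost without 1 of 5 arrays, namely replicate 2 of the 9-week or day-10 mature luminal cells, the day-16 mature luminal array, the day-10 luminal progenitor array or replicate 1 of the 9-week luminal progenitors (-1.32 to -1.05). The mean of all probe sets gave -1.22 and -0.93, and the replicate block in the 7 groups of 2 arrays ended the mature luminal call (-1.60, adjusted p = 0.0661). A second well-detected probe set gave -1.93 and -1.45.

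Slc6a6 was also lower in luminal cells than in stem cells. Its lowest, median and highest levels were 9.23, 10.65 and 11.65 on 8 stem cell arrays, 7.98, 9.37 and 10.19 on 7 luminal progenitor arrays and 6.91, 9.14 and 11.07 on 8 mature luminal arrays. These ranges overlapped, also within a stage: at 3 weeks the mature luminal array was at 11.07 and the stem cell mean at 11.025. Averaged over the 5 shared stages the difference was -1.64 ± 0.32 in luminal progenitors (limma adjusted p = 0.0164) and -1.45 ± 0.32 in mature luminal cells (adjusted p = 0.0153). The second of these was lost without either the day-16 stem or the day-16 mature luminal array, each giving -0.86, with the replicate block in the 7 groups of 2 arrays (-0.83, adjusted p = 0.109) and with the mean of all probe sets (-0.82, adjusted p = 0.149). The mean of all probe sets also ended the luminal progenitor call (-1.19, adjusted p = 0.0577).

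Slc6a8, the creatine carrier, was lower in both luminal types, at -1.06 ± 0.18 in luminal progenitors (limma adjusted p = 0.0106) and -0.89 ± 0.18 in mature luminal cells (adjusted p = 0.0110). Its stem cell arrays ran from 9.86 to 11.58 (median 10.96), the luminal progenitor arrays from 8.63 to 10.54 (median 10.13) and the mature luminal arrays from 9.34 to 10.72 (median 10.24), so all 3 overlapped. In luminal progenitors the difference was largest in pregnancy. At 3 and 9 weeks luminal progenitors differed from stem cells by -0.02 and -0.33, and at days 10 and 16 by -2.82 and -1.49. Without the day-10 luminal progenitor array the value was -0.62 and without both pregnant luminal progenitor arrays -0.34, and neither passed (adjusted p = 0.151 and 0.583); with the replicate number as a block in the 7 groups of 2 arrays it was -0.18 (adjusted p = 0.676). The mature luminal call was lost without either day-16 array of the compared types, each giving -0.56. Mature luminal cells lay above stem cells at 3 weeks (0.825). They lay below them at 9 weeks (-0.285), days 10 and 16 (-1.37 and -2.21) and in retired breeders (-1.41).

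Slc6a14 takes up neutral and cationic amino acids against their gradients, and it was the carrier with the largest excess in luminal cells. Its lowest, median and highest levels were 1.99, 4.55 and 6.75 in stem cells, 5.25, 6.01 and 7.79 in luminal progenitors and 4.13, 7.75 and 10.15 in mature luminal cells. The mature luminal array of the retired breeder, at 4.13, was the only one of its type below 6.35, and the arrays at 3 weeks and day 19 were the highest. Mature luminal cells exceeded stem cells by 3.06 ± 0.56 (limma adjusted p = 0.00572), in 5 of 5 stages and under all 33 alternatives (2.38 to 3.85). The difference by stage ran from 0.57 in retired breeders to 4.32 at day 10. A second probe set gave 2.45.

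In luminal progenitors Slc6a14 exceeded stem cells by 2.28 ± 0.56 (limma adjusted p = 0.0431), in 4 of 5 stages. That call was lost under 22 of 33 alternatives. Leaving out any of 15 arrays ended it, with the lowest value at 1.75 without the day-10 luminal progenitor array; with the replicate block in the 7 groups of 2 arrays the difference was 0.97 (adjusted p = 0.413), and without both pregnant luminal progenitor arrays 1.38 (adjusted p = 0.405). No change with pregnancy passed for Slc6a14.

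Other Slc6 carriers were not called in these comparisons without a replicate term. The glycine carrier Slc6a9 varied mainly with the replicate number (below). Slc6a15, a carrier of branched-chain amino acids and proline, was at -1.47 ± 0.70 in mature luminal against stem cells, and Slc6a17, a vesicular carrier best known in neurons, at -1.70 ± 0.63 (limma adjusted p = 0.243 and 0.129); with the replicate term Slc6a17 passed (-1.58 ± 0.48, adjusted p = 0.0371). The monoamine and GABA carriers Slc6a2, Slc6a3, Slc6a4, Slc6a11, Slc6a12 and Slc6a13 lay above the array median on fewer than 12 arrays.

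Slc38a1, a sodium-coupled carrier of glutamine and other small neutral amino acids, differed by cell type and by stage. On stem cell arrays it lay between 7.56 and 9.04 (median 8.68), on luminal progenitor arrays between 8.26 and 10.90 (median 10.11) and on mature luminal arrays between 9.00 and 11.11 (median 9.82). Only the day-16 mature luminal array (9.00) fell within the stem cell range, while of the luminal progenitors only the day-10 array (8.26) did. The difference from stem cells was 1.46 ± 0.28 in mature luminal cells (limma adjusted p = 0.00706; 1.22 to 1.73 and called under all 33 alternatives) and 1.18 ± 0.28 in luminal progenitors (adjusted p = 0.0360). The latter call was lost without any of 11 arrays, at adjusted p from 0.0522 to 0.0771 and values from 1.07 to 1.24 among them. The second probe set of the gene gave 0.98 and 0.99.

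In pregnancy Slc38a1 fell by 1.12 on the log2 scale (± 0.28, limma adjusted p = 0.0338) over the 3 cell types. Mature luminal levels were 9.96 and 11.11 at 9 weeks, 9.65 and 9.97 at day 10, 9.00 at day 16 and 9.09 at day 19. Luminal progenitor levels were 10.26 and 9.88 at 9 weeks, 8.26 at day 10 and 9.20 at day 16. Stem cell levels were 8.70 and 8.88 at 9 weeks, 7.56 and 8.64 at day 10 and 7.68 at day 16. Pregnant arrays lay below the 9-week arrays of their type in stem cells and luminal progenitors, and overlapped them by 1 array in mature luminal cells. How many of all genes separate within a cell type was not counted. The call rested on a small margin: it was lost without any of 12 arrays (adjusted p 0.0503 to 0.109), and the value was -0.71 with the replicate block in the 7 groups of 2 arrays (adjusted p = 0.206). With the replicate term over all arrays it passed, at -1.25 ± 0.25 (adjusted p = 0.00555). The second probe set gave -1.06.

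Slc38a3, a glutamine carrier best known in liver and brain, rose by 1.70 ± 0.43 in pregnancy (limma adjusted p = 0.0348) from low levels. The 9-week arrays lay between 2.72 and 4.66 and the pregnant arrays between 3.78 and 7.58, so they overlapped, with the highest value in day-16 mature luminal cells. The call was lost under 14 of 33 alternatives; leaving out any of 10 arrays ended it, with 1.22 without the day-16 mature luminal array, and with the replicate block in the 7 groups of 2 arrays it was 0.83 (adjusted p = 0.398). With the replicate term over all arrays it passed, at 1.56 ± 0.40 (adjusted p = 0.0224). A second, hardly detected probe set gave -0.47, and the mean of both 0.61 (adjusted p = 0.386).

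Slc38a4, which carries small neutral amino acids and is abundant in liver and placenta, was lower in mature luminal cells than in stem cells by -2.60 ± 0.59 (limma adjusted p = 0.0179), in 5 of 5 stages. Stem cell arrays ran from 4.59 to 11.25 (median 6.98) and mature luminal arrays from 1.96 to 6.82 (median 3.55), which overlapped. Levels were 11.25 and 7.93 in 3-week stem cells, 8.66 and 7.58 in 9-week stem cells, and 8.91 and 9.06 in 3-week luminal progenitors, which together were the highest arrays. Mature luminal cells were also -2.46 ± 0.61 below luminal progenitors (adjusted p = 0.202, and 0.0306 with the replicate term). The call against stem cells was lost when values below the array median were raised to it (-1.53, adjusted p = 0.0684) and without the 2 arrays of large Gapdh 3′ excess (-2.44, adjusted p = 0.0640). Endothelial marker levels were highest on the same 3-week stem arrays (10.96 and 11.56). In mature luminal cells against stem cells, marker medians were -1.89 (12 endothelial), -2.09 (10 stromal) and -2.94 (15 basal and myoepithelial). Against luminal progenitors the same medians were -0.45, -4.01 and -0.18. The part of these other cells in the result was not tested.

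The remaining Slc38 genes passed in no comparison of stages or cell types in the model without a replicate term, and Slc38a2 and Slc38a6 differed by replicate number (below). Slc38a2, which cells raise when short of amino acids, stayed between 11.13 and 12.79 on all 23 arrays. Slc38a9, a lysosomal arginine sensor upstream of the growth kinase complex mTORC1, lay between 6.59 and 7.85 on pregnant arrays and between 7.75 and 8.74 on 9-week arrays, overlapping by 2 arrays on each side; its difference of -0.89 ± 0.28 did not pass (limma adjusted p = 0.0793). Slc38a6 lay lower on all 9 pregnant arrays (5.91 to 9.08) than on the 3 retired arrays (9.09 to 10.27), as did 4.43% of all genes, while 0 carriers and 1.32% of all genes lay higher on all pregnant arrays. The proton-coupled carriers Slc36a1 and Slc36a4, which act at lysosomes among other membranes, gave -0.38 ± 0.48 and -1.13 ± 0.48 in pregnancy and did not pass without the replicate term.

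**Figure D3:**
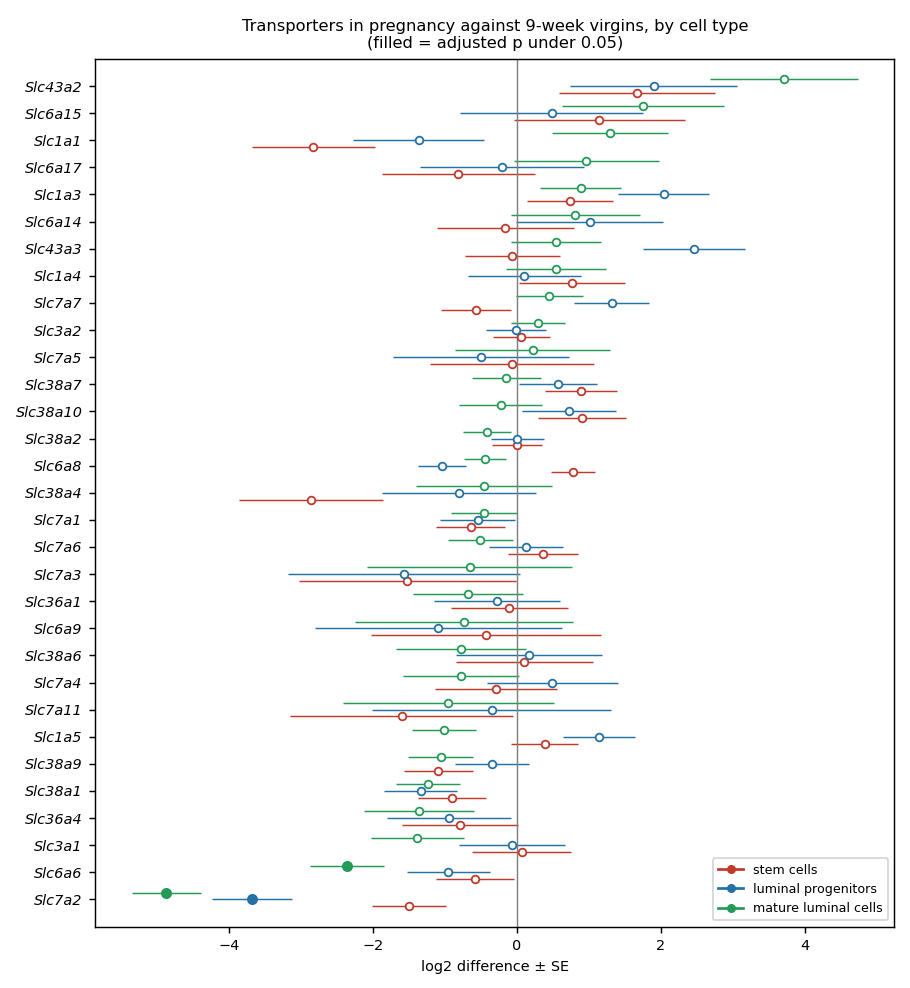
Log2 difference between pregnancy and 9-week virgins (horizontal axis, ± SE from the limma model) for the 31 carriers above the array median on 12 or more arrays, in stem cells (red), luminal progenitors (blue) and mature luminal cells (green). Filled points passed at an adjusted p under 0.05: Slc7a2 in mature luminal cells (-4.88) and luminal progenitors (-3.69), and Slc6a6 in mature luminal cells (-2.36).

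Slc43a2, a facilitative carrier of branched-chain and aromatic amino acids, rose in pregnancy by 2.45 ± 0.64 over the 3 cell types (limma adjusted p = 0.0415). In mature luminal cells it was 2.53 and 5.90 at 9 weeks, 6.30 and 7.72 at day 10, 8.97 at day 16 and 7.81 at day 19. All 4 pregnant mature luminal arrays lay above both 9-week arrays, and the 9-week arrays were far apart. The share of all genes that separate in this way was not counted. Over cell types the pregnant arrays (5.05 to 8.97) overlapped the 9-week arrays (2.53 to 6.50). Within mature luminal cells the difference of 3.72 ± 1.03 did not pass (adjusted p = 0.0880), but passed with the replicate term (3.72 ± 0.62, adjusted p = 0.00246). The level of this gene itself moved with the replicate number (below). Taken separately and averaged over cell types, the arrays titled replicate 1 gave a pregnancy difference of 2.01, from day-10 stem and mature luminal cells only. All others gave 1.65, from the 3 cell types at days 10 and 16, so these values cover unlike sets and cannot be compared directly. The call over 3 cell types was lost without any of 13 arrays (values 1.89 to 2.72 for all alternatives that lost it, adjusted p up to 0.124). It was also lost with the replicate block in the 7 groups of 2 arrays (1.89, adjusted p = 0.0502) and kept with the replicate term over all arrays (1.90 ± 0.41, adjusted p = 0.00870). A second probe set gave 2.25, and the third did not pass the filter.

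Slc43a3, which belongs to this family by sequence and carries purine nucleobases, had the largest difference between mature luminal and stem cells, at -3.28 ± 0.39 (limma adjusted p = 0.000573; -3.86 to -2.71 and called under all 33 alternatives). In luminal progenitors it was -1.80 ± 0.39 (adjusted p = 0.0247), lost without the 3-week stem replicate 2 array or either 3-week luminal progenitor array at adjusted p up to 0.0552 (-1.82 to -1.80). Stem cell arrays ran from 6.87 to 10.46 (median 9.35), luminal progenitors from 5.19 to 8.27 (median 7.43) and mature luminal cells from 4.66 to 7.66 (median 5.89); all 3 overlapped. Endothelial markers moved the same way: 7 of 12 were lower in mature luminal than in stem cells (median -1.89) and 4 of 12 in luminal progenitors (median -1.24), with all 12 above the array median on the 4 virgin stem arrays. On the day-16 stem array, where the endothelial mean was 7.0, Slc43a3 was 10.39. On the day-10 stem arrays the endothelial mean was 6.47 and 5.87, and Slc43a3 averaged 7.875. The part of endothelial RNA in the result was not tested. The third member, Slc43a1, had low levels and is described with the replicate number.

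Slc1a3, a glutamate and aspartate carrier, was lower in luminal progenitors (-2.06 ± 0.35, limma adjusted p = 0.0100) and mature luminal cells (-2.38 ± 0.35, adjusted p = 0.00155) than in stem cells. Its stem cell arrays ran from 6.18 to 9.17 (median 7.96), luminal progenitors from 3.25 to 7.71 (median 5.54) and mature luminal cells from 3.67 to 8.17 (median 4.87). The ranges overlapped because of 1 stage: at 3 weeks the mature luminal array, the one with the highest leukocyte markers and the largest Gapdh 3′ excess, was at 8.17, above the 3-week stem arrays at 6.80 and 6.18. At the other 4 stages mature luminal cells were lower, by -4.90 to -2.33. Both calls were lost when the mean of all 6 probe sets was used (-0.82 and -0.85). Of the other 5, 4 lay above the array median on 2 arrays or fewer and 1 did not pass the filter.

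Slc1a5, a glutamine exchanger, was also lower in luminal progenitors (-1.62 ± 0.27, limma adjusted p = 0.0100) and mature luminal cells (-1.43 ± 0.27, adjusted p = 0.00731), in 5 of 5 stages each. The 8 stem cell arrays lay between 9.57 and 10.83 (median 10.36), above all 7 luminal progenitor arrays (7.55 to 9.36, median 8.37), and the share of all genes that do so was not counted. Mature luminal arrays (7.07 to 9.98, median 8.59) overlapped the stem cell arrays through the 3-week array alone. Both calls were lost only with the mean over probe sets (-1.02 and -0.94), the second probe set being above the array median on 4 arrays. Slc1a4, an exchanger of alanine, serine and cysteine, was not called (1.10 ± 0.43 in mature luminal against stem cells, adjusted p = 0.155), but passed with the replicate term (1.17 ± 0.36, adjusted p = 0.0365). The glutamate and cysteine carrier Slc1a1 was 1.49 ± 0.50 above stem cells in luminal progenitors (adjusted p = 0.126), and 1.58 ± 0.39 with the replicate term (adjusted p = 0.0173).

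**Figure D4:**
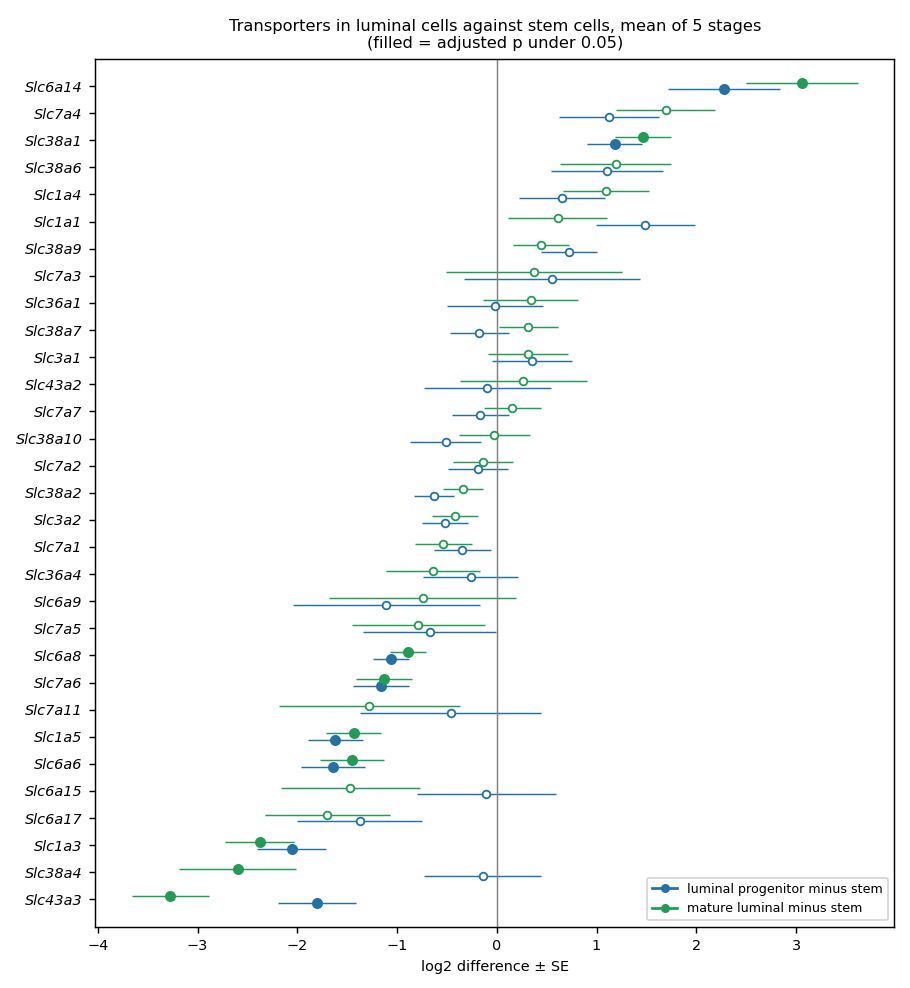
Log2 difference from stem cells (horizontal axis, ± SE from the limma model), averaged over the 5 stages with all 3 cell types, for luminal progenitors (blue) and mature luminal cells (green) and the 31 carriers above the array median on 12 or more arrays. Filled points passed at an adjusted p under 0.05: Slc6a14 and Slc38a1 were higher in both, and Slc1a3, Slc1a5, Slc43a3, Slc6a6, Slc6a8 and Slc7a6 lower in both, while Slc38a4 was called lower in mature luminal cells (-2.60).

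Of the 12 heavy and light chains of heteromeric exchangers, 11 passed the filter and 1 was called between cell types. Slc7a6, a light chain that exchanges cationic for neutral amino acids, was lower in luminal progenitors (-1.16 ± 0.28, limma adjusted p = 0.0407) and mature luminal cells (-1.13 ± 0.28, adjusted p = 0.0282), in 5 of 5 stages each. Its stem cell arrays ran from 8.09 to 9.23 (median 8.96), luminal progenitors from 7.12 to 8.31 (median 7.41) and mature luminal cells from 7.06 to 8.51 (median 7.64). Overlap came from the 9-week stem array titled replicate 1, at 8.09. The margins were small: leaving out any of 12 arrays ended the first call (values -1.22 to -0.97) and any of 4 arrays the second (the day-16 stem and mature luminal arrays and replicate 1 of the 3-week stem and day-10 mature luminal cells, -1.10 to -0.98). The second probe set gave -1.58 and -1.47.

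Slc3a2, the heavy chain that most of these light chains need to reach the surface, lay between 11.02 and 12.71 on all arrays, with cell type differences of -0.52 ± 0.23 and -0.42 ± 0.23 and a pregnancy difference of 0.07 ± 0.23, none of which passed. With the replicate term the luminal progenitor difference passed (-0.46 ± 0.14, limma adjusted p = 0.0405). Its partner Slc7a5, the main exchanger of large neutral amino acids such as leucine, lay between 8.34 and 12.27, and differed by -0.67 ± 0.67, -0.79 ± 0.67 and -0.27 ± 0.68 in the same comparisons. Slc7a7, a cationic and neutral exchanger, lay between 7.42 and 10.20 without a call.

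The likeness of patterns was described with Pearson's r over the 16 group means, which share libraries and replicate numbers. Of 15377 genes, Slc3a2 had rank 3 in likeness to Slc7a5 (r = 0.86), after the asparaginyl-tRNA synthetase Nars (0.88) and Ptafr (0.87) and before Tmc8 (0.85) and Zfp703 (0.82). Over the 15 arrays not titled replicate 1, r between Slc7a5 and Slc3a2 was 0.86, and over the 8 titled replicate 1 it was 0.14. The genes most like Slc6a14 were 4930594C11Rik, Rab9, Arfgef2, Gsta3 and Pdpr (0.83 each, rounded). Those most like Slc7a8, whose level was never above the array median, were 1700012I11Rik (0.86), Polr1b (0.79), Crmp1 (0.79), Ddx27 (0.78) and Rcc1l (0.78).

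The remaining comparisons gave few or no calls among the carriers. Between mature luminal cells and luminal progenitors 0 of 51 passed in limma (2 at an unadjusted p under 0.05), where 0.124% of all genes were called. For pregnancy within luminal progenitors the 1 call was Slc7a2, which was lower, against 0.156% of all genes called and 0.0975% called lower, and within stem cells there were 0 (7 unadjusted, 0.26% of all genes called). The test of whether the pregnancy change differed between mature luminal and stem cells gave 0 (5 unadjusted; 0.013%), and late against mid pregnancy in mature luminal cells 0 (4 unadjusted; 0.026%). At 3 weeks against 9 weeks 0 passed (5 unadjusted; 0.176%), the nearest being Slc43a3 at 1.79 ± 0.44 (limma adjusted p = 0.129; 1.77 ± 0.42 and 0.0430 with the replicate term) and Slc38a4 at 2.21 ± 0.67 (0.226; 2.39 ± 0.54 and 0.0362). Retired breeders against 9-week virgins gave 0 (5 unadjusted; 0.0065%).

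With the replicate term fitted to all arrays the counts of carriers called grew to 13 (4 higher, 9 lower) for luminal progenitors against stem cells, where 14.4% of all genes were then called, and to 16 (5 higher, 11 lower) for mature luminal against stem cells, where 19.7% were. The gain included Slc38a6 (0.95 ± 0.27 and 1.04 ± 0.27 higher), Slc38a2 (-0.68 ± 0.12 and -0.39 ± 0.12) and Slc43a1 (-1.63 ± 0.48 and -1.81 ± 0.48) in both, and Slc7a11 (-0.995 ± 0.32, limma adjusted p = 0.0450) in mature luminal cells. In retired breeders against pregnancy Slc38a1 was added (1.19 ± 0.29, adjusted p = 0.0296). For pregnancy over 3 cell types the count was 7 (3 higher, 4 lower; 15.6% of all genes), with Slc1a3 (1.10 ± 0.33, limma adjusted p = 0.0401) and Slc36a4 (-1.42 ± 0.39, adjusted p = 0.0299) added.

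The replicate number in the array titles moved many genes, and carriers were called about as often as all genes. Within the 7 groups of 2 arrays, 11 of the 51 carriers were higher in replicate 1 and 4 lower in limma, where 31.8% of all genes were called (14.9% higher, 16.9% lower); this comparison was added after the data had been seen. The labels do not say what the number stands for. Slc7a11, the light chain that exchanges cystine for glutamate, was higher in replicate 1 by 2.82 ± 0.30 (limma adjusted p = 0.000139), in 7 of 7 groups by 2.20 to 3.98. Slc7a5 was higher by 2.04 ± 0.25 (adjusted p = 0.000237), Slc6a9 by 2.88 ± 0.33 and Slc7a3 by 2.68 ± 0.33, each in 7 of 7 groups. Slc3a2 (0.59 ± 0.13) and Slc7a1 (0.70 ± 0.17) were higher in 7 of 7 as well.

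Replicate 1 and replicate 2 levels of Slc7a11 were 10.28 and 8.02 in 3-week stem cells, 8.87 and 5.26 in 9-week stem cells, 8.10 and 5.02 in day-10 stem cells, 8.08 and 5.80 in 3-week luminal progenitors, 7.35 and 5.04 in 9-week luminal progenitors, 7.84 and 3.86 in 9-week mature luminal cells, and 5.79 and 3.59 in day-10 mature luminal cells. Replicate 1 was higher in every group, although the 2 sets of arrays overlapped across groups. For Slc6a9 the 7 arrays of replicate 1 lay between 9.22 and 10.93 and those of replicate 2 between 5.89 and 8.19, without overlap. For Slc7a3 they lay between 7.15 and 8.41 and between 3.96 and 6.01, also without overlap. How many of all genes separate in this way was not counted. The lower carriers in replicate 1 were Slc43a1 (-2.51 ± 0.47), Slc43a2 (-1.63 ± 0.38), Slc38a6 (-1.58 ± 0.27) and Slc38a2 (-0.51 ± 0.12), each in 7 of 7 groups. Slc7a2 differed by 0.21 ± 0.26 (limma adjusted p = 0.569).

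**Figure D5:**
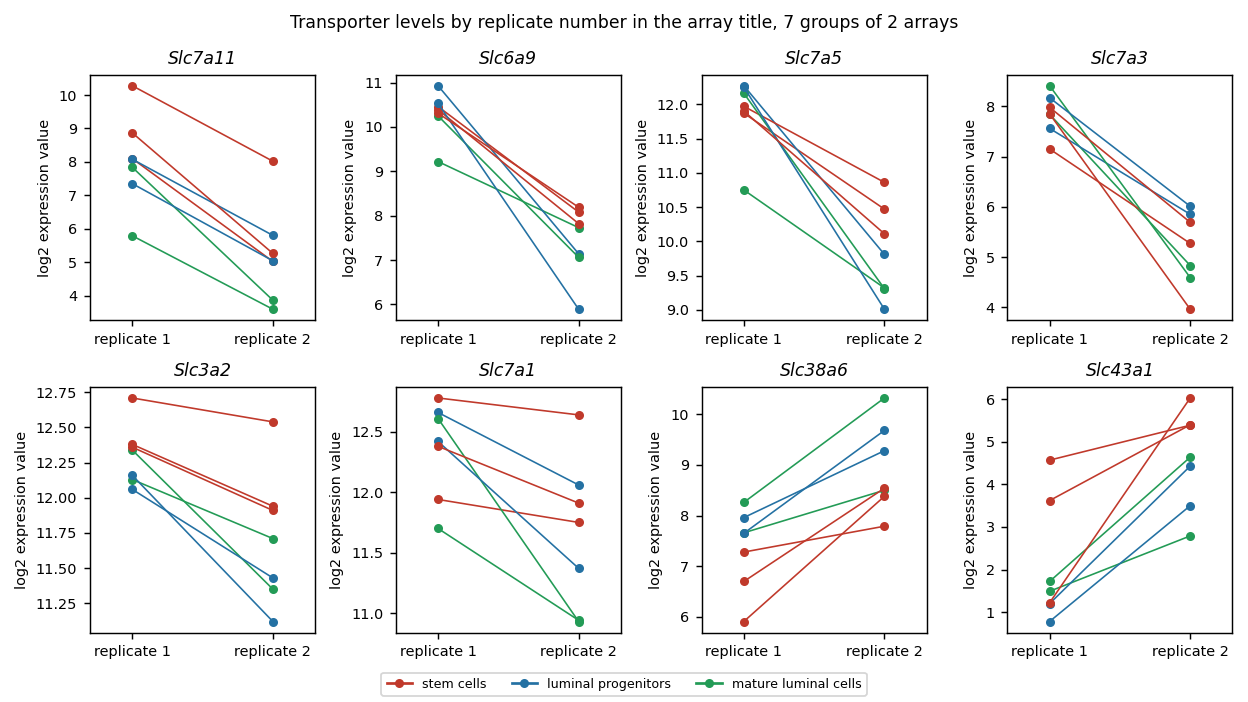
Level (log2 expression value, vertical axis) of 8 carriers on the arrays titled replicate 1 and replicate 2, joined for each of the 7 groups with 2 arrays and coloured by cell type. Slc7a11, Slc6a9, Slc7a5, Slc7a3, Slc3a2 and Slc7a1 are higher in replicate 1 in every group, and Slc38a6 and Slc43a1 lower.

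Some genes of the amino acid response moved with the same number, while others did not. Of 34 response and ATF4 target genes kept, 17 were higher in replicate 1 and 1 lower (median 0.70, against -0.02 over all genes), among them asparagine synthetase Asns (1.61 ± 0.15), the cysteinyl-tRNA synthetase Cars (3.02 ± 0.30) and the mitochondrial folate enzyme Mthfd2 (2.44 ± 0.29). Atf4 itself was at -0.22 ± 0.10 (limma adjusted p = 0.1004). The lower gene was Cebpb (-0.81 ± 0.16), and Ddit3, Trib3, Chac1 and Atf3 were among those not called. The carrier Slc38a2, which cells raise when short of amino acids, was lower in replicate 1 (above). In the same comparison 10 of 12 leukocyte markers were lower and 2 higher (median -2.66), and 7 of 9 luminal keratin and junction genes were higher (median 0.82); their part in the carriers' differences was not tested. The day-19 array is titled replicate 1 and has no partner, so for these genes day 19 and the replicate number cannot be told apart.

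The promoter of Slc7a11 is shown because this light chain was higher in replicate 1, as were 17 of the 34 response genes. The motif searched was TGATGNAA on both strands, a pattern of composite sites bound by ATF4 with C/EBP partners, in the 250 bases before each RefSeq gene start on GRCm38.p6. It was present for 3.91% of 27025 genes and for 3 of the 41 carriers with a promoter entry, Slc7a11, Slc7a7 and Slc6a21, and for 9 of 29 response genes with an entry. Of the 11 carriers higher in replicate 1, 8 had an entry and 1, Slc7a11, held the motif. The 110 bases before the start of Slc7a11, chr3:50443614-50443723 on the minus strand, read 5′ to 3′ with the 2 facing matches in capitals. The first match begins 66 and the second 47 bases before the start, and they do not overlap.
Slc7a11: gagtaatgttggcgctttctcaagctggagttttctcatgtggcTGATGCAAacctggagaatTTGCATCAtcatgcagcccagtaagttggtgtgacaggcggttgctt
A match describes letters and was not tested as a binding site.

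Other genes of amino acid handling were read from lists in the same model. Of 28 enzymes of amino acid and glutathione metabolism, 1 rose and 4 fell in pregnancy over the 3 cell types. Those that fell were the tryptophan-degrading Ido1 (-8.68 ± 0.49), cysteine dioxygenase Cdo1, which feeds taurine synthesis (-3.03 ± 0.36), the glutathione synthesis subunit Gclc (-1.77 ± 0.32) and glutamine synthetase Glul (-0.84 ± 0.10). In retired breeders against pregnancy 4 were higher, namely Ido1 (8.88 ± 0.60), Cdo1 (4.04 ± 0.45), Arg1 (3.40 ± 0.61) and Glul (0.89 ± 0.12), in a comparison that shares the pregnant arrays. Arginases Arg1 (3.41 ± 0.49) and Arg2 (1.37 ± 0.30), which split arginine, were higher in mature luminal than in stem cells, and the branched-chain aminotransferase Bcat1 (-3.35 ± 0.85) was lower, among 4 higher and 2 lower enzymes. In luminal progenitors against stem cells 1 was lower, the polyamine enzyme Odc1 (-0.79 ± 0.18).

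Milk protein genes rose in pregnancy in 7 of 9 cases (median 4.60), beside 5 of 51 carriers and 7.13% of all genes called in either direction. Among 31 genes of amino acid sensing by mTORC1, Wdr59 rose (1.22 ± 0.26) and Fnip1 fell (-1.22 ± 0.27) in pregnancy. Of the 34 response genes, 1 fell in pregnancy, the secreted glycoprotein Stc2 (-2.27 ± 0.39, limma adjusted p = 0.00658). Of 19 other carriers of amino acids and peptides from the Slc15, Slc16, Slc17, Slc25, Slc32 and Slc66 families and some unassigned ones, 0 were called by limma in pregnancy over the 3 cell types (7 at an unadjusted p under 0.05, median difference -0.09), and 0 in luminal progenitors or mature luminal cells against stem cells (3 and 2 unadjusted).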

How the data were processed

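The authors deposited 1 table of log2 expression values for 45101 probe sets on 23 Affymetrix arrays; that these are log2 values follows from their range, 0 to 14.28. The software that made them was not given in the sources used here. Values were used as deposited, with no pseudocount. Of the probe sets, 34945 had 1 annotated symbol, 932 several and 9160 none. All 58 carriers matched a RefSeq gene table by Entrez identifier, and 30 had 2 or more of their 118 probe sets. The filter kept genes that exceeded the 40th percentile of all probe sets on 2 or more arrays. The number of arrays limits the precision.

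One limma 3.58.1 model (R 4.3.3), with a mean per group and eBayes with an intensity trend, was fitted to all arrays and tested on simulated data. It had 7 residual and 4.74 prior degrees of freedom; groups of 1 array were assumed to vary like the others. Tests were two-sided, and values after ± are its standard errors. Contrasts weighted stages and cell types equally. Deviations from group means by replicate number correlated in all 21 pairs of groups (0.303 to 0.682, median 0.470). The labels do not say what the numbers mark, and the main model had no term for them. The replicate term set the 8 arrays titled replicate 1 against all 15 others, of which 8 have no number. Other settings were quantile normalization, no filter, a floor at the array median, the mean of all probe sets, only the compared groups, no trend, 2 replicate blocks and each array left out. Any carrier could be named, first those that passed, those with the highest mean, widest range or smallest p, and a fixed set; of each other list, up to 4 passing genes per comparison by smallest p. The carriers, marker lists and pathway lists were chosen with earlier results of these data known.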

Additional observations from a re-analysis of the deposited data

How the results depend on the processing

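Across the 26 carrier and comparison results that passed in the main model, the direction was kept in 855 of 855 alternative values, and 711 passed the test. Of these values, 598 came from leaving out 1 array, which seldom can reverse a result chosen for passing. Other probe sets taken singly were not among the settings, and the second of Slc38a3 had the opposite sign. The 6 results that passed throughout were Slc7a2 in pregnancy over 3 cell types, in mature luminal cells and in retired breeders against pregnancy, and Slc43a3, Slc6a14 and Slc38a1 in mature luminal against stem cells. For counts of carriers called, the replicate block of arrays titled replicate 1 against all others gave 13 for luminal progenitors and 16 for mature luminal cells against stem cells, 1 for mature luminal cells against luminal progenitors, 1 for the difference in pregnancy change, 2 at 3 against 9 weeks and 2 for retired breeders against pregnancy. The replicate block in the 7 groups of 2 arrays gave 2 for pregnancy over 3 cell types and 1 in mature luminal cells. The mean of all probe sets gave 4 for luminal progenitors against stem cells, 3 for pregnancy over 3 cell types and 0 in luminal progenitors. Fitting only the compared groups gave 1, 0 and 1 for pregnancy over 3 cell types, in luminal progenitors and in mature luminal cells, and no intensity trend gave 3 over cell types and 1 in mature luminal cells. The floor at the array median gave 1 at 3 against 9 weeks. Without the luminal progenitor arrays of days 10 and 16, a setting chosen after seeing the data, 5 were called for luminal progenitors against stem cells and 1 for pregnancy over 3 cell types. Apart from the settings with fewer arrays, the cause was not tested. Leaving out each array in turn gave 4 to 8 for luminal progenitors and 6 to 12 for mature luminal cells against stem cells, 1 to 5 for pregnancy over 3 cell types, 0 to 1 in luminal progenitors and 1 to 2 in mature luminal cells. Quantile normalization moved the median of all genes from -0.04 to 0.07 for luminal progenitors against stem cells and from 0.11 to -0.06 at 3 against 9 weeks. Levels near or under the array median hold background as well as signal, so differences of weakly detected carriers may be too small or too large. The floor at the array median brought Slc38a4 in mature luminal against stem cells from -2.60 to -1.53. It brought Slc6a14 in luminal progenitors against stem cells from 2.28 to 1.445.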
